A study of Homo sapiens with 12 samples.

Results

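GALNT1 was silenced in HA22T, a human hepatocellular carcinoma cell line, and the transcriptome was read on 6 arrays, 3 of cells given a non-targeting siRNA (siControl) and 3 of cells given GALNT1 siRNA (siGALNT1). They are 6 of the 12 arrays of the series, and the other 6 hold the same treatments in PLC5, another line of this cancer. Arrays were taken by their labels alone. In every group 10 nM siRNA was delivered with Lipofectamine RNAiMAX and RNA was taken after 48 h. The GALNT1 siRNA was a pool against 1 target, so transcripts that the pool lowers by other routes cannot be told apart from those that follow GALNT1. The labels give replicate numbers 1 to 3 and do not say whether these were separate cultures, so p-values measure the spread between the arrays only.

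GALNT1 is one of the GalNAc-transferases that begin mucin-type O-glycosylation. It sits in the Golgi and adds N-acetylgalactosamine to serine or threonine of proteins on their way to the surface, and other enzymes extend or cap that first sugar. Receptors, ligands and matrix proteins carry such sugars, which bear on their folding, shedding and uptake, and the EGF receptor is a glycoprotein of hepatocytes and liver cancer cells. The array reads only RNA, so none of these protein events was measured.

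Levels are log2 values of the processed spot signal minus the 75th percentile of the array, so 0 is the level of that percentile and a difference of 1 is 2-fold. A difference is always siGALNT1 minus siControl. Of 50599 probes, 36327 were detected (well above background) on 3 or more of the 6 arrays and were counted, and these covered 17023 named genes, each read from its brightest counted probe. Between 36679 and 48208 spots were well above background per array, no spot was saturated, and 734 to 3633 spots per array were flagged as non-uniform and left out. Correlations over 24259 probes were 0.972 to 0.987 within siControl, 0.968 to 0.984 within siGALNT1 and 0.956 to 0.989 between the groups. All 6 arrays lay on 1 slide.

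HA22T kept only part of a liver program. Of 19 hepatocyte markers, 9 were well above background on all 6 arrays, among them the factor HNF4A and the protease inhibitor SERPINA1. Among plasma proteins, APOA1 and FGA were well above background on all 6 arrays, albumin (ALB) on 4, AFP on 3 and transthyretin (TTR) on 1. COL3A1 of fibroblasts and TEK of endothelium were above it on 0 arrays, whereas the PTPRC probe of the leukocyte list was above it on all 6. AFP was the 1 of 15 counted hepatocyte markers that met the fold and p criterion given below, on the lower side, and none of the other markers did. The summed linear level of the 5 leukocyte markers, mostly that probe, was 24.3 to 45.7 in siControl and 41.1 to 65.9 in siGALNT1, ranges that overlap, and its part in the results was not tested.

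The target RNA was nearly lost. The brighter of the 2 GALNT1 probes read 1.32, 0.75 and 0.85 on the siControl arrays and -3.15, -3.68 and -5.55 on the siGALNT1 arrays. All 3 siGALNT1 arrays lay far below every siControl array, and 1 of them was no longer well above background. The difference was -5.10 ± 0.61 (SE), which leaves 2.91% of the control signal, with limma's adjusted p = 0.0708. The dimmer probe read 1.09, 0.63 and 0.39 against -2.84, -4.29 and -5.02, a difference of -4.75 ± 0.49 (SE) with limma's adjusted p = 0.0305, and 1 of its 3 siGALNT1 arrays was well above background. The exact permutation test, two-sided, gave p = 0.1 for each probe, the smallest value that 3 against 3 arrays allow. With the replicate number as a block the adjusted p became 0.204 and 0.107. Without siGALNT1 replicate 1 limma's adjusted p of the dimmer probe was 0.00175, and without any other single array it was 0.0968 to 0.340.

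The fixed comparison genes differed little. GAPDH, the glycolytic enzyme often used as a loading reference, differed by -0.09 ± 0.27 (SE). The brighter EGFR probe read 1.28, 1.14 and 1.23 in siControl against 1.79, 1.27 and 1.26 in siGALNT1, a difference of 0.23 ± 0.23 (SE), and the dimmer counted EGFR probe differed by -0.22 ± 0.37. EGF, the ligand, was well above background on 1 of 6 arrays and was not counted.

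Across the transcriptome that dimmer GALNT1 probe was the only one that fell at an adjusted p below 0.05, 1 of 36327 counted probes or 0.00275%, and none rose. An unadjusted p below 0.05 was reached by 1086 probes, or 2.99%, in the reported fit. Same-numbered arrays deviated together and this fit ignores it, so the share it would pass where nothing differs is not known. Blocking by pair raised the number of probes under that threshold to 2146 of 36327. By the study's criterion, a fold change of at least 1.5 with an unadjusted p below 0.05, 660 probes (1.82%) were higher and 383 (1.05%) lower. In simulated data 1749 of 36127 probes without a set change met this criterion. The simulation holds no pairing of same-numbered arrays, so it does not give the count to expect here. With the block 1928 probes of the data met the criterion, and no blocked simulation was made. These counts alone do not show that probes changed. At the level of genes 249 (1.46%) were higher and 178 (1.05%) lower. Genes whose 3 siGALNT1 arrays all lay above the 3 siControl arrays numbered 488 (2.87%), and those whose arrays all lay below numbered 865 (5.08%).

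The split between higher and lower moved with the scaling. The median difference of the counted probes was -0.06, and 63.3% of probes past the criterion were higher. That share was 85.5% after normexp background correction, 47.8% after quantile normalization, 51.8% with median scaling and 84.6% when the percentile was taken without the flagged spots. When pairs of same-numbered arrays were blocked, 1074 probes were higher and 854 lower. Single arrays also set the counts, as 301 were higher without siControl replicate 1 and 1034 without siControl replicate 2, whereas 1326 were lower without siGALNT1 replicate 1 and 192 without siGALNT1 replicate 2. So no direction is given for the transcriptome as a whole.

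A firmer set was formed by genes that met the criterion, in 1 direction, in the fit as reported and in 18 other settings of scaling, background, flags, spread, pairing, test and left-out arrays. It holds 14 lower and 20 higher genes. Both kinds were chosen by their HA22T values, which are therefore given as a description.

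After GALNT1 the largest differences among the lower genes were those of HAGH, TBC1D4, SLC2A11 and NUDT3. HAGH, glyoxalase II, which releases lactate and glutathione from the product of glyoxalase I, read -0.37, -0.26 and -0.11 in siControl and -2.57, -2.26 and -1.75 in siGALNT1. Every siGALNT1 array was more than 1 unit below every siControl array, and the difference was -1.95 ± 0.28 (SE). TBC1D4, a Rab GTPase-activating protein that AKT controls in glucose transporter traffic, read 1.38, 1.59 and 1.62 against 0.05, 0.08 and -0.14, with little spread in either group. NUDT3, which removes phosphate from diphosphoinositol polyphosphates, read -1.55, -1.99 and -1.97 against -2.93, -3.71 and -3.17. The 2 groups again did not overlap, and the difference was -1.44 ± 0.27 (SE).

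**Figure D1:**
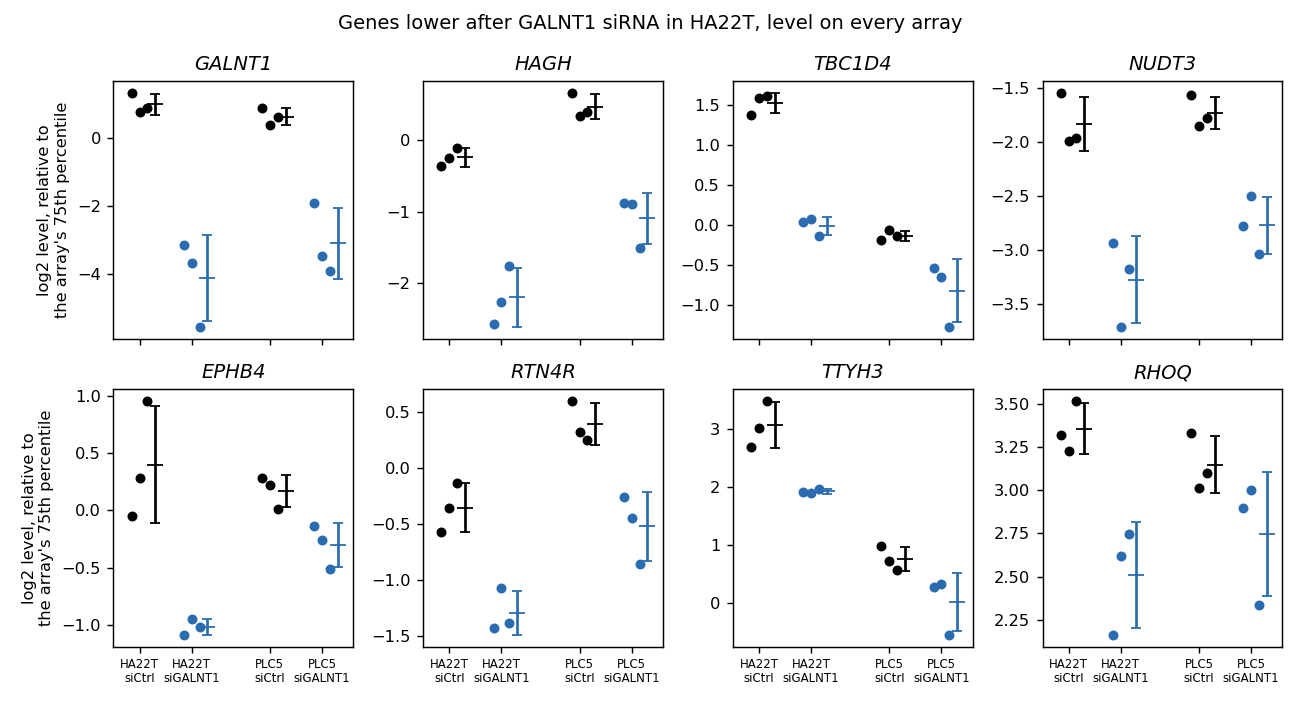
Log2 level relative to the array's 75th percentile (vertical axis) of 8 genes that were lower in HA22T under every setting, on all arrays of HA22T and PLC5. Points are single arrays, black for siControl and blue for siGALNT1, and bars give the mean ± SD of 3 arrays. In each of the 8 genes the siGALNT1 points of HA22T lie below the siControl points.

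EPHB4, RTN4R, TTYH3 and SLC2A11 encode membrane proteins. EPHB4, the receptor tyrosine kinase for ephrin-B2, read -0.05, 0.29 and 0.96 in siControl and -1.09, -0.95 and -1.02 in siGALNT1. The siControl arrays were spread widely while the siGALNT1 arrays lay close together, the difference was -1.42 ± 0.28 (SE), and its other probe gave -1.14. RTN4R, the Nogo receptor, read -0.57, -0.36 and -0.13 against -1.43, -1.07 and -1.38. TTYH3, a member of the tweety family of membrane proteins, read 2.69, 3.02 and 3.48 against 1.90, 1.88 and 1.97, and SLC2A11, a facilitative sugar transporter, gave -1.51 ± 0.35 (SE) on 1 probe but 0.54 on its other. The 2 SLC2A11 probes thus disagreed in direction.

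The set also held RHOQ, PSME3IP1, STRBP, TXLNA, MALSU1 and DRAM1. RHOQ, the small GTPase also called TC10, read 3.32, 3.23 and 3.52 against 2.16, 2.62 and 2.75, and its 5 counted probes all gave lower values, from -0.87 to -0.59. PSME3IP1, a partner of a proteasome activator, gave -1.05 ± 0.26 (SE) and -0.82 on its other probe. The RNA-binding protein STRBP gave -0.97 ± 0.29 and the syntaxin-binding protein TXLNA -0.94 ± 0.31. MALSU1, an assembly factor of the mitochondrial ribosome, and DRAM1, a lysosomal membrane protein of autophagy, gave -0.81 and -0.78, and these 2 are named outside the naming rule to complete the set.

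The same siRNA pool was also given to PLC5. The PLC5 differences had no part in the choice of these genes, but the spread of the PLC5 arrays entered the shared p-values in every setting except HA22T fitted alone and the t-test, so the counts of p-values and of groups apart in PLC5 are a description. All 14 of these genes were lower in PLC5, where 42.9% of the genes counted in HA22T were lower. In 10 of the 13 with all 6 PLC5 values every siGALNT1 array lay below every siControl array, which held for 1.42% of all genes with 6 values. An unadjusted p below 0.05 was reached by 8 of the 14, against 0.535% of all genes in that direction, and none passed limma's adjusted threshold in PLC5. The PLC5 differences were -3.72 for GALNT1, -1.55 for HAGH, -1.26 for SLC2A11, -1.04 for NUDT3, -0.91 for RTN4R, -0.77 for STRBP, -0.74 for TTYH3 and -0.69 for TBC1D4. DRAM1 differed by only -0.02 in PLC5. The test of the difference between the lines, by limma's contrast, gave an unadjusted p of 0.0322 for TBC1D4 and 0.0334 for EPHB4. In that test the dimmer GALNT1 probe gave an unadjusted p of 0.0296 and the brighter GALNT1 probe 0.138. The fitted differences of TBC1D4, EPHB4 and GALNT1 were larger in HA22T. Because the 14 genes were chosen for their HA22T difference, which enters that test, its p-values are a description. By the probe each gene is read from, 2 of the 14, TBC1D4 and EPHB4, had an unadjusted p below 0.05 in it.

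The higher genes behaved otherwise in PLC5. Of the 20, 11 were lower and 9 higher there, none had an unadjusted p below 0.05, and the test of the difference between the lines gave an unadjusted p below 0.05 for 16 of 20, against 1.69% of all genes counted in HA22T. Because the set was chosen for its HA22T difference, which enters that test, this share is a description. Over 39100 probes counted in either line, limma's test of the difference passed the adjusted threshold for 0 (0%), and 952 had an unadjusted p below 0.05.

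**Figure D2:**
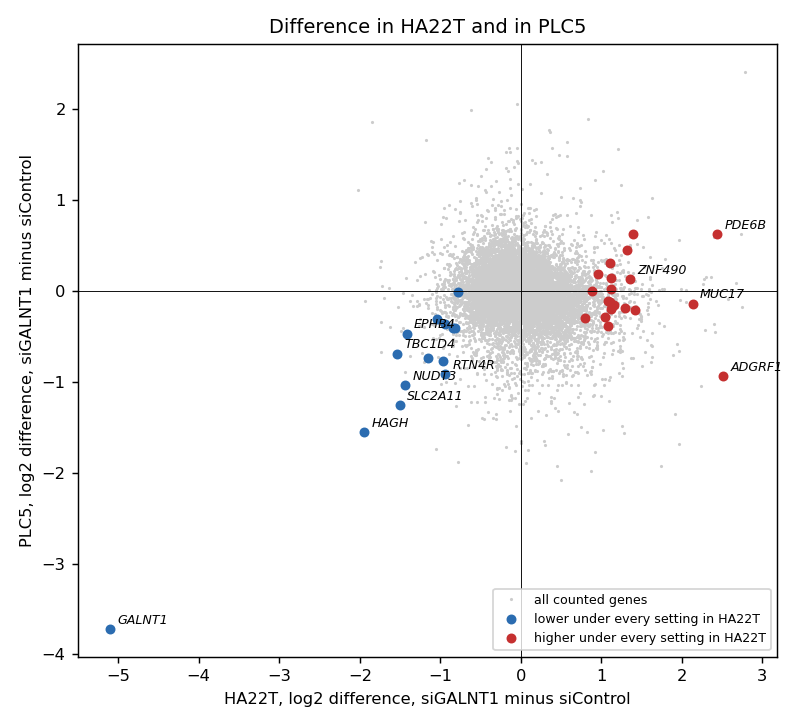
Log2 difference of each counted gene, siGALNT1 minus siControl, in HA22T (horizontal axis) and in PLC5 (vertical axis). The 14 genes lower under every setting in HA22T (blue) all lie below 0 on the vertical axis, and the 20 higher genes (red) lie on both sides, 11 below and 9 above.

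The higher genes were dim. Their median level over the 6 arrays was -3.14, against -0.63 for the 14 lower genes and -0.73 for all counted genes, and none of the 20 was brighter than -1.61. ADGRF1, an adhesion G protein-coupled receptor, read -5.64, -4.69 and -6.89 in siControl and -3.52, -3.42 and -2.73 in siGALNT1, and was well above background on 1 and 3 arrays. MUC17, a membrane mucin, read -3.80, -3.44 and -4.11 against -1.42 and -1.87, with the spot of siGALNT1 replicate 1 flagged, so its fold rests on 2 arrays in that group. PDE6B, the rod photoreceptor phosphodiesterase subunit, was well above background on 0 siControl arrays and 3 siGALNT1 arrays and was at least 3.11-fold higher. ZNF490, a zinc finger protein, was the highest of the set that all 6 arrays measured well, with -2.63, -1.96 and -2.27 against -1.18, -0.69 and -0.92.

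The other 6 of the 10 with the largest differences lay between 1.13 and 1.42. NODAL, a TGF-beta family ligand of the embryo, gave 1.32 ± 0.32 (SE). ARHGEF25, a guanine nucleotide exchange factor, gave 1.29 ± 0.31. NR0B2, the orphan receptor SHP that represses bile acid synthesis, gave 1.15 ± 0.32, and ANGPTL8, a hepatic regulator of lipoprotein lipase, gave 1.13 ± 0.37. ZFR2 gave 1.42 ± 0.44, and LNX1, a ubiquitin ligase of the NUMB protein, 1.39 ± 0.38 with 1 siControl spot flagged. In all of these the siGALNT1 arrays lay above the siControl arrays that were measured.

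Among genes well above background on all 6 arrays, 106 higher and 62 lower genes met the criterion with groups that did not overlap. The 12 largest on the lower side added to those above MLANA (-1.23 ± 0.45), a melanosome protein, the zinc finger gene ZNF41 (-0.99 ± 0.36) and GCLM (-0.98 ± 0.32), the modifier subunit of the enzyme that starts glutathione synthesis. The 12 largest on the higher side were headed by SLC8A2 (1.71 ± 0.75), a sodium-calcium exchanger, UMODL1 (1.61 ± 0.58) and AGAP1 (1.42 ± 0.57), a GTPase-activating protein for ARF. The spread in these was wide, since SLC8A2 read -5.18, -2.92 and -2.58 in siControl, and UMODL1 read -3.36, -0.51 and -2.70 in siGALNT1. The other AGAP1 probe gave -0.12. BABAM2-AS2, the protease TMPRSS4, TMEM229B, WFDC8 and LRTM2 gave between 1.23 and 1.28, and apart from ZNF490, NODAL and ARHGEF25 none of the 12 met the criterion under every setting. AGAP1 lost it in 6 of 18 alternatives, SLC8A2 in 5, UMODL1, MLANA and ZNF41 in 3 and GCLM in 1.

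Some probes crossed the detection limit. In 2 named probes, of PDE6B and WNT7B, all 3 siGALNT1 arrays and 0 siControl arrays were well above background, and 12 showed the reverse. Such probes were counted only through the group where they were detected. The median array had 44641 spots well above background in siControl and 38756 in siGALNT1, and the part of this in the 2 counts was not tested. A bound sets the mean of the detected group against the lowest signal well above background on each array of the other group, or that probe's own signal where it was higher, and none is given for the 6 of the 12 lower probes, and for WNT7B, that had a flagged spot in the undetected group. By group means FEZF1, a zinc finger factor, was at least 1.61-fold lower and lactotransferrin (LTF) at least 1.60-fold. The synaptic vesicle protein SNAP91 was at least 1.46-fold, RNU105B at least 1.34-fold and the ATP-gated channel P2RX7 at least 1.24-fold lower. These bounds leave out the spread between arrays. Of these probes only that of RNU105B had groups that did not overlap, and SNAP91 differed by -0.66 ± 0.71 (SE). SNAP91 and P2RX7 each have a brighter counted probe. In limma's fit the adjusted p of PDE6B was 0.955 and that of these 5 lower probes was higher. The dim WNT7B probe, of a Wnt ligand, was not read further, and the brighter WNT7B probe differed by 0.25.

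The transcriptome was then read by pathway, through 32 gene lists of 739 genes, of which 682 were counted. Only 10 of the 682 met the criterion, 9 lower and 1 higher, against 1.05% and 1.46% of all counted genes. The lower ones were GALNT1, EPHB4, FGFR1, RHOQ, TMSB10, CAPZA2, CTSB, GCLM and PLK1, and the higher one was GPX2. Their share, 9 of 682 lower, was near that of all genes. The median difference of all counted genes was -0.10, the value beside which each median below should be read.

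**Figure D3:**
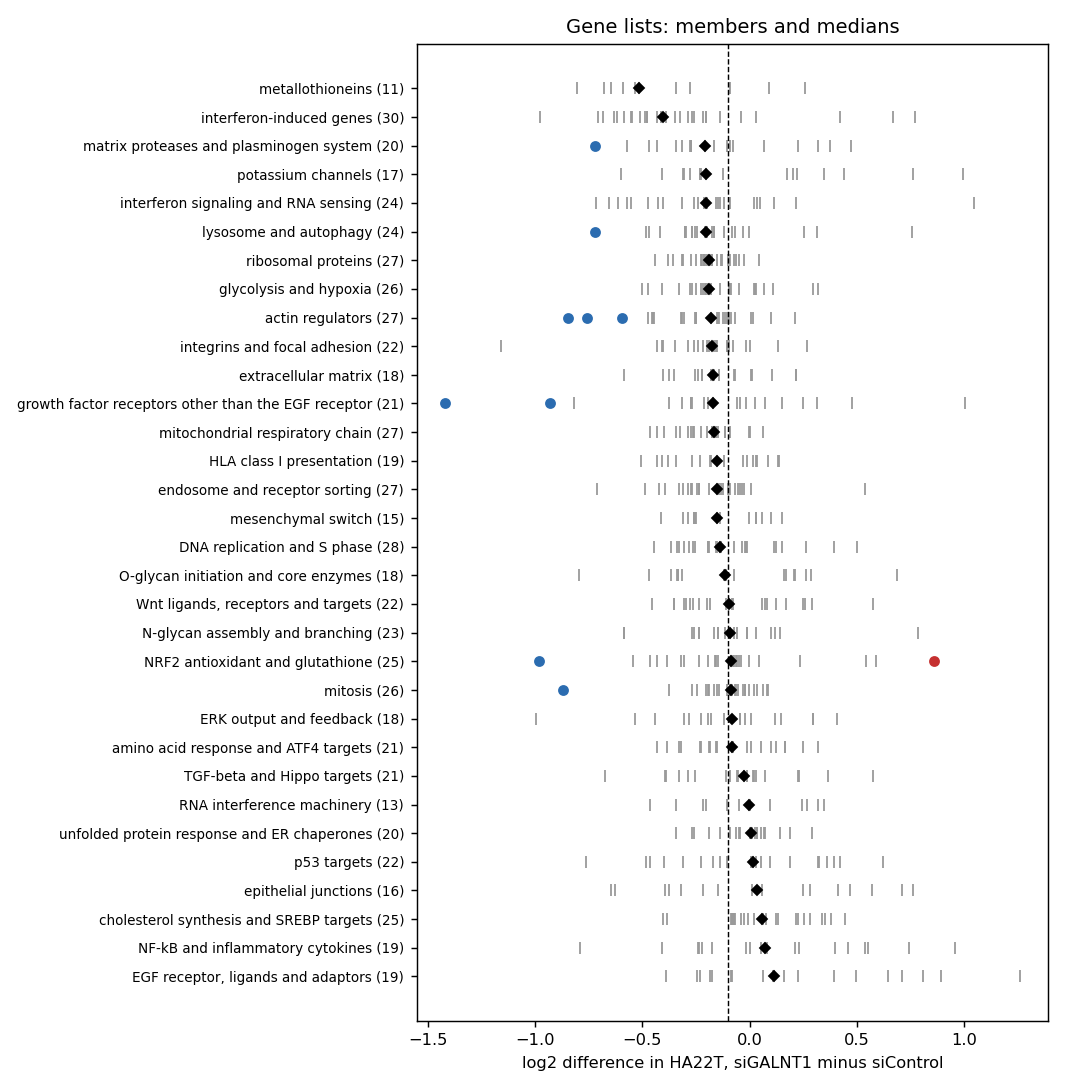
Log2 difference in HA22T (horizontal axis) of the counted members of 32 gene lists (number counted in parentheses). Gray ticks are members that did not meet the criterion, blue and red points are members lower and higher by it, diamonds are list medians and the dashed line is the median of all counted genes, -0.10; GALNT1 itself is not drawn. Metallothioneins and interferon-induced genes lie farthest to the left.

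Bright genes also differed between the replicate pairs, which bears on lists of abundant transcripts. When genes were divided into 5 equal classes by brightness, the median difference within same-numbered arrays was, in the brightest class, -0.39 in pair 1, 0.05 in pair 2 and -0.08 in pair 3, and in the dimmest class it was 0.06, -0.35 and -0.08. Pair 1 thus ran downward with brightness and pair 2 upward. The 27 ribosomal protein genes, among the brightest of all, had medians of -0.71, 0.28 and -0.07 in the 3 pairs, and RPL3 and RPL4 of the large subunit differed by -0.13 and -0.27. A list was therefore also read by the number of members lower in all 3 pairs, which held for 23% of all counted genes and for 1 of the 27 ribosomal genes.

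**Figure D4:**
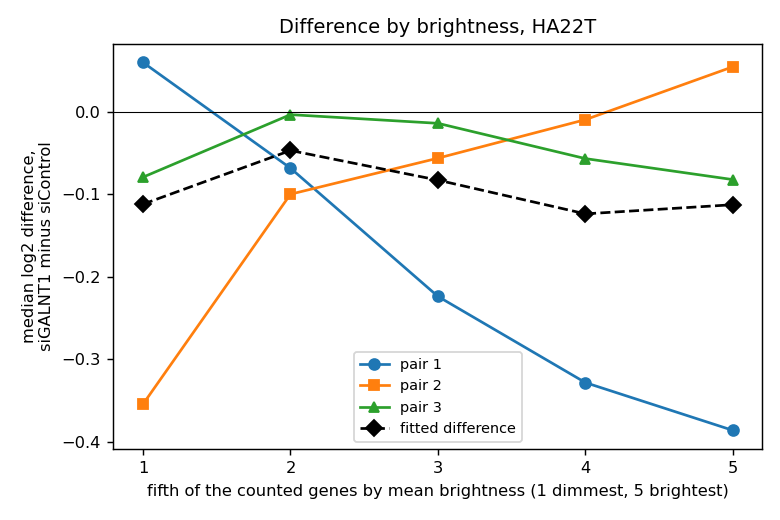
Median log2 difference (vertical axis) of the counted genes in 5 classes of equal size by mean brightness (horizontal axis), for each pair of same-numbered HA22T arrays and for the fitted difference. In the brightest class pair 1 lies at -0.39 and pair 2 at 0.05, and in the dimmest class pair 2 lies at -0.35.

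Interferon-induced genes had a lower median than all genes, with 0 members past the criterion. These genes are switched on when interferons reach their receptor and a complex that holds STAT2 and IRF9 binds the interferon-stimulated response element, and small RNAs from transfection can feed the same route through RNA sensors. Of 30 counted members 26 had negative differences, against 10807 of 17023 genes, the median was -0.40, and 17 of 30 were lower in all 3 pairs, against 23% of all genes. OAS1 and HERC5 were the 2 whose groups did not overlap, near the 5.08% of all genes. The pair medians were -0.42, -0.40 and -0.22. In PLC5 17 of the 30 were lower and the median was -0.05.

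The members with the largest differences were antiviral effectors. RSAD2, which makes a chain-terminating nucleotide, gave -0.98 ± 0.80 (SE), OAS2, a synthase of 2-5A, -0.70 ± 0.44, SAMD9L -0.68 ± 0.61, IFIT1, which binds viral RNA ends, -0.62 ± 0.58, and IFIT2 -0.55 ± 0.56. None passed limma's adjusted threshold, and the levels varied within each group, with IFIT1 at 2.40, 1.00 and 1.66 in siControl against 1.41, 0.56 and 1.23. IFIT1 differed by -0.99, -0.44 and -0.43 within the 3 pairs and IFIT2 by -0.61, -0.48 and -0.57, so both were lower in each pair. With the replicate number as a block 4 of 30 members, these 2 with OAS2 and SAMD9L, were lower at an unadjusted p below 0.05, against 2.73% of all genes. USP18, which restrains interferon receptor signaling, was higher in all 3 pairs (0.48, 0.41 and 0.36), and IFITM1 gave 0.77 ± 0.46 with 1 siGALNT1 spot flagged and 0.05 on its other probe.

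**Figure D5:**
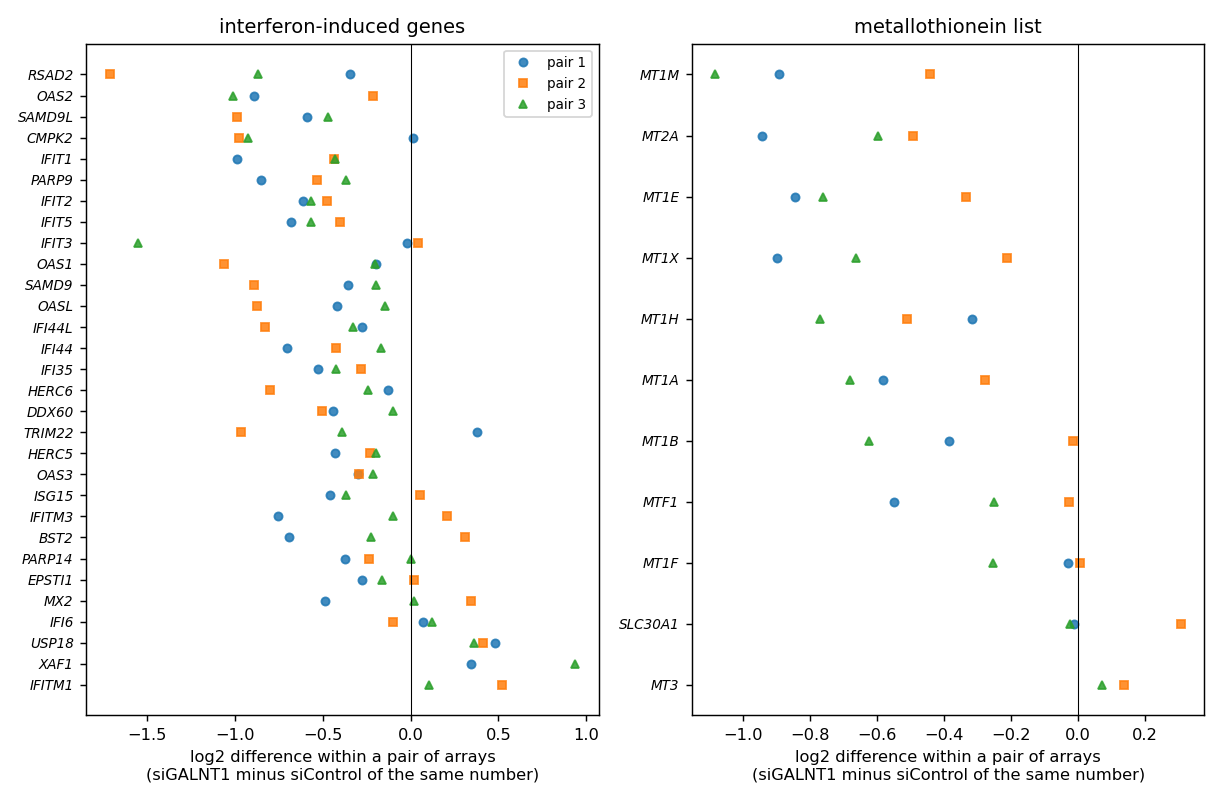
Log2 difference within each pair of same-numbered HA22T arrays (horizontal axis) for the counted interferon-induced genes (left) and the metallothionein list (right), ordered by the fitted difference. A missing symbol is a pair with a flagged spot. In 17 of 30 interferon-induced genes and 8 of 11 genes of the metallothionein list all 3 pairs lie below 0.

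Of 24 counted genes of interferon signaling and RNA sensing 0 met the criterion, 18 had negative differences, with a median of -0.21, and 10 were lower in all 3 pairs. IFIH1 and RIGI, the sensors of viral RNA, gave -0.48 ± 0.33 and -0.61 ± 0.60, RIGI from 2 arrays in each group. The receptor chain IFNAR1 gave -0.72 ± 0.60. Groups did not overlap in 4 of the 24 on the lower side, among them STAT2 (-0.65 ± 0.33), MAVS and JAK1. They did not overlap in 1 of the 24 on the higher side. The shares of all genes were 5.08% and 2.87%. IFNB1, the ligand, gave 1.04 ± 0.65 but was well above background on 1 siControl and 2 siGALNT1 arrays. Of the class I antigen presentation genes 4 of 19 were lower in all 3 pairs, and HLA-B gave 0.03.

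Promoters of these genes show the element that the pathway uses. The letters searched were GAAANNGAAA on both strands of the 250 bases before each RefSeq start in GRCh38.p14, and they were present in 16 of the 24 counted interferon-induced genes that had a promoter in the table and in 3.07% of all 27305 promoters. IFIT1 and IFIT5, lower in all 3 pairs, are printed beside IFITM1, which was not, with the matches in capitals.
IFIT1, chr10:89392373-89392622, + strand: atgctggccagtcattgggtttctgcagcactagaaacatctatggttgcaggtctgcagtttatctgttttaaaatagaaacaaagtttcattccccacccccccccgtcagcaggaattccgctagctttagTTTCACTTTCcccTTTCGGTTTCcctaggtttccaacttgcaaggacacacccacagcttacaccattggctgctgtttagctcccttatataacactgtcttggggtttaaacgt
IFIT5, chr10:89414318-89414567, + strand: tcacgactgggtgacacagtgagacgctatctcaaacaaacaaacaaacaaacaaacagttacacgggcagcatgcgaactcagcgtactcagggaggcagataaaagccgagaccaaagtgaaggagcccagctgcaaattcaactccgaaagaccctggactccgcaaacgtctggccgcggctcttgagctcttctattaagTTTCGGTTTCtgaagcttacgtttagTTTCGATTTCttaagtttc
IFITM1, chr11:313790-314039, + strand: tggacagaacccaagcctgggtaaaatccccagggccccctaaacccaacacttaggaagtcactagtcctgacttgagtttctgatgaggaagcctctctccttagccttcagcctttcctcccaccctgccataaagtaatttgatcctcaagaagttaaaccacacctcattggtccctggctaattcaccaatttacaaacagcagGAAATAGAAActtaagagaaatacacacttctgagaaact
IFIT1 and IFIT5 hold 2 matches each and IFITM1 holds 1, so the letters were found in promoters of genes that were lower and of one that was not.

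Metallothioneins, the small cysteine-rich proteins that bind zinc and copper and are driven by the zinc sensor MTF1, had the lowest median of the 32 lists. The list also holds MTF1 and the zinc exporter SLC30A1. The median of its 11 counted genes was -0.51, 8 of 11 were lower in all 3 pairs, and none met the criterion. MT2A, a form made in most tissues, differed by -0.94, -0.49 and -0.60 in the 3 pairs (-0.68 ± 0.36, SE), MT1E by -0.84, -0.34 and -0.76, and MT1M by -0.89, -0.44 and -1.08. Under the block 5 of the 11 were lower at an unadjusted p below 0.05, namely MT2A, MT1E, MT1X, MT1H and MT1A. MT1B gave -0.34 and MT3, the form of brain, 0.26. The MT1 genes are near-identical copies whose probes can share targets, so they are not separate evidence. In PLC5 MT1M gave -1.27 and the median of the list was -0.06.

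The 250 bases before MT2A hold 7 matches to the core of the metal response element, searched as TGCACNC or TGCGCNC on both strands, and 24.7% of all promoters hold at least 1. Of the 6 counted genes of this list with a promoter available, 5 had a match. The letters were picked after the list's values were known.
MT2A, chr16:56608334-56608583, + strand: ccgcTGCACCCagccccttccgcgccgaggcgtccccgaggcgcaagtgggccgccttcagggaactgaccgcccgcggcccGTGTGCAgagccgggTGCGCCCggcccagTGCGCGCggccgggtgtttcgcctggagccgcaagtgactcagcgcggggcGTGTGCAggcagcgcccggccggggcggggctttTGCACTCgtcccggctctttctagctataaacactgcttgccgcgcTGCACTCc

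The interferon and metallothionein medians leaned on single arrays. Without siGALNT1 replicate 2 the interferon median was -0.20, and without siControl replicate 1 the metallothionein median was -0.23, and both stayed negative in all 17 settings.

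Genes of the EGF receptor system gave the highest list median, 0.11, with 0 of 19 past the criterion. Members ranged from -0.39 for ADAM10 to 1.26 for the adaptor GAB1. In all 3 pairs 7 of 19 were higher, against 1465 of 17023 genes, and 4 were lower, and the median was 0.0064 without siControl replicate 3. The receptor ERBB2 gave 0.64 ± 0.41 (SE), with 1.70 in pair 1 and 0.14 and 0.09 in the others, and its groups did not overlap. That held on the higher side for 2 of the 19 members, against 2.87% of all genes. The ligands HBEGF, BTC and EREG gave 0.71 ± 0.54, 0.80 ± 0.44 and 0.89 ± 0.41, each higher in every pair that was measured. The sheddases ADAM10 and ADAM17 gave -0.39 and -0.19, and the ubiquitin ligase CBL -0.24. Downstream, none of 18 genes of ERK output met the criterion, with a median of -0.08. DUSP4 and DUSP5, phosphatases that ERK induces, gave -0.23 and 0.41, and EGR1 gave -0.99 ± 1.56. In PLC5 the median of the EGF receptor list was 0.10, against 0.03 for all genes, and 5 of its genes were lower.

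Endosomal genes, which sort receptors after uptake, had a median of -0.15, close to that of all genes. Of 27 counted, 25 had negative differences, against 10807 of 17023 genes, and 13 were lower in all 3 pairs, none met the criterion, and 7 had groups that did not overlap, all on the lower side, against 5.08% of all genes. These 7 were RAB22A (-0.71 ± 0.37), EEA1 (-0.49 ± 0.31), a tether of early endosomes, RABEP1, SNX2, SNX1, RAB11A and RAB4A. RAB5A gave -0.12. The pair medians of the list were -0.38, -0.09 and -0.07. With the replicate number as a block 0 of its 27 genes were lower at an unadjusted p below 0.05, against 2.73% of all genes. In PLC5 8 genes of the list were lower, with a median of 0.13.

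In the list of actin regulators 3 of 27 genes were lower by the criterion, against 1.05% of all genes. RHOQ is described above. TMSB10, which holds actin monomers, read 7.15, 6.63 and 6.86 against 5.75, 6.39 and 6.24, and CAPZA2, which caps actin filament ends, read -0.66, -0.96 and -0.81 against -1.39, -1.41 and -1.41. The other members lay between -0.48 and 0.21, with RHOA at -0.11 and RHOB at 0.01. TMSB10 differed by -0.76 ± 0.32 and CAPZA2 by -0.59 ± 0.21 (SE). TMSB10 lost the criterion in 5 of 18 alternatives and CAPZA2 in 4, both of them without siControl replicate 1 and with the percentile taken without flagged spots, which left 1 of 27.

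Adhesion and matrix genes gave no member past the criterion but one. Integrin and focal adhesion genes had a median of -0.18 with 8 of 22 lower in all 3 pairs, and ITGA1 and ITGA2, collagen-binding chains, gave -0.22 and 0.27. Epithelial junction genes had a median of 0.03, with CDH1 at -0.32 and EPCAM at 0.57, both near background. Genes of the mesenchymal switch had a median of -0.15, with VIM at 0.03 and CDH2 at 0.06. COL1A1 and COL1A2 were not counted, and the 18 counted matrix genes had a median of -0.17. Of 20 proteases and inhibitors CTSB, the lysosomal cathepsin B, was lower (2.80, 3.22 and 3.13 against 2.07, 2.49 and 2.43), whereas the urokinase PLAU gave 0.32 and its receptor PLAUR -0.09. CTSB differed by -0.73, -0.73 and -0.71 in the 3 pairs. It lost the criterion in 7 of 18 alternatives, among them quantile normalization and the fits without siControl replicate 2 or 3 or siGALNT1 replicate 1 or 3.

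Growth factor receptors other than EGFR included EPHB4 and FGFR1. FGFR1, a receptor of fibroblast growth factors, read 3.03, 2.63 and 2.93 in siControl and 2.24, 1.27 and 2.29 in siGALNT1, groups that did not overlap, and its other probe gave -0.37. FGFR1 lost the criterion in 2 of 18 alternatives, without siGALNT1 replicate 2 (-0.60) and with the methods' t-test. Groups did not overlap in 4 of 21 members on the lower side and 1 on the higher, against 5.08% and 2.87% of all genes. MET and MST1R, the receptors of HGF and MSP, gave -0.27 and 0.48. TGF-beta and Hippo genes had a median of -0.02, with TGFB1 at 0.02 and TGFB2 at -0.33. Wnt genes had a median of -0.10, with WNT3 at -0.08 and WNT3A at 0.29.

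The enzymes that act beside GALNT1 did not take one direction. Among 18 counted genes of O-glycan initiation and extension GALNT1 alone met the criterion. Of the 18, 11 had negative differences and 7 positive ones, up to 0.68 for GALNT16. GALNT2, another widely expressed transferase, gave -0.07, GALNT7 -0.36 and GALNT10 -0.33. C1GALT1, which makes the core 1 disaccharide, gave -0.47 ± 0.29, its chaperone C1GALT1C1 -0.34 ± 0.32 and the branching enzyme GCNT1 -0.80 ± 0.53, and 8 of the 18, GALNT1 included, were lower in all 3 pairs. N-glycan enzymes had a median of -0.09, and ALG1 and ALG2 of the early lipid-linked steps gave 0.78 and -0.01.

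Stress responses showed no member past the criterion. Of 20 genes of the unfolded protein response and ER chaperones 0 met the criterion and 0 were lower in all 3 pairs, the median was 0.01, and HSPA5 and HSP90B1, chaperones of the ER, gave 0.03 and -0.19. The ER stress element, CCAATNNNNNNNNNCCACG on either strand, stands in the 250 bases before 6 of these 20 genes and in 0.0806% of all promoters, and the promoter of HSPA5 shows it in capitals.
HSPA5, chr9:125241344-125241593, - strand: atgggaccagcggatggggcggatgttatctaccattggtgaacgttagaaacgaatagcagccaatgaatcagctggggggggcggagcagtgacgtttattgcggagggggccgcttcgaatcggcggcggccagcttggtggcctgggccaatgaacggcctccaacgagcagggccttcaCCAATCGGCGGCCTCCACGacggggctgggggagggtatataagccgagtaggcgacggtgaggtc
The amino acid response had a median of -0.08, with ATF4 at -0.38 and ATF3, measured on 1 siGALNT1 array, at 0.17. The p53 targets had a median of 0.01, with CDKN1A at 0.42 and MDM2 at -0.40. Inflammatory genes under NF-kB had a median of 0.07, with CXCL1 and CXCL2 at -0.22 and -0.18.

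A pair of genes of the antioxidant list met the criterion in opposite directions. GCLM read 1.41, 1.48 and 1.69 in siControl against 1.06, 0.04 and 0.53, and GPX2, a glutathione peroxidase of epithelia, read from -4.56 to -3.61 in siControl and from -3.37 to -3.05 in siGALNT1. The groups of both genes did not overlap, and GPX2 differed by 0.86 ± 0.33 (SE) and lost the criterion in 5 of 18 alternatives. The regulators NFE2L2 and KEAP1 gave -0.23 and -0.04, and HMOX1 and GSTP1 had groups that did not overlap on the higher side, at 0.54 and 0.59. Of the 25 counted genes of the list 3 did so on the higher side and 2 on the lower, against 2.87% and 5.08% of all genes.

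In the cell cycle PLK1, a kinase of mitosis, was the only one of 26 mitosis genes past the criterion, with 5.55, 4.81 and 5.13 against 4.23, 4.21 and 4.44, and its other probe gave -0.41. PLK1 lost the criterion in 1 of 18 alternatives, the fit without siControl replicate 1. CCNB1 and CCNB2 gave -0.07 and -0.09, and the median was -0.09. The letters TTTGAA on either strand, the core of the cell cycle homology region, stand before 10 of the 21 mitosis genes with a promoter in the table, PLK1 included, and before 13.6% of all genes. None of 28 replication genes met the criterion, the median was -0.14, and MCM2 and MCM3 gave -0.15 and -0.34.

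In the metabolic and housekeeping lists CTSB was the only member past the criterion. Cholesterol genes had a median of 0.06, with HMGCS1, of the early steps, at 0.28. Glycolysis and hypoxia genes had a median of -0.19, with SLC2A1 and SLC2A3 at -0.20 and 0.03. Groups did not overlap in 4 of the 26 counted (PDK1, PFKP, GPI and TPI1), all on the lower side, against 5.08% of all genes. Without siGALNT1 replicate 1 the glycolysis median was -0.0014. Respiratory chain genes had a median of -0.17, set by pair 1 (-0.62, against 0.10 and -0.03), with NDUFA1 and NDUFA2 at -0.26 and -0.23. Lysosome and autophagy genes had a median of -0.21, with TFEB at -0.12 and LAMP1 at -0.27. Potassium channels had a median of -0.21 over 17 counted of 28, which turned to 0.05 without siGALNT1 replicate 1, the first of which, KCNA1 and KCNA2, were not counted. Genes of RNA interference had a median of -0.0046, with AGO1 at -0.05 and AGO2 at -0.20.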

How the data were processed

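RNA of HA22T and PLC5 cells was measured on 12 one-color Agilent arrays. The deposited intensity values, made by the authors with Feature Extraction 10.5.1.1, are processed signals after background subtraction, with flags for each spot. A deposited table of log2 values per probe, scaled by the authors, served as an alternative. Here log2 values were set relative to the 75th percentile of all spots of the array that are not controls, non-uniform spots were then dropped, and replicate spots averaged by probe. Probes were named by RefSeq accession (GRCh38.p14 table), 28174 of 50599, and promoter sequences are from RefSeq in that build. The 4 groups were fitted together with limma 3.58.1 (lmFit, eBayes) in R 4.3.3, with Benjamini-Hochberg adjustment over the counted probes at 0.05.

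The members and gene lists were chosen with earlier results of these data known. Named genes are GALNT1, EGF, EGFR and GAPDH, the 12 largest differences in each direction, up to 10 genes a direction past the criterion under every alternative, up to 5 probes a direction detected in 1 group only, and in each list the members past the criterion and the first 2. Other named genes were chosen after their values were seen. Some genes that the rule names are not reported here.

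Same-numbered arrays deviated together from their group means (correlations 0.555, 0.402 and 0.427, each the highest for its number), so the numbers pair the arrays. The reported fit has no block, and blocked values stand beside the results they change. The pairing rests on the values, since the labels give only numbers. Alternatives were normexp (offset 50, on the median spot signal), quantile normalization, median scaling, the deposited table, flagged spots kept, 2 other percentiles chosen after seeing the data, HA22T alone, a trend, a prior from counted probes, the block, the methods' t-test (Student, equal variances), other filters and each array left out. The fit was also tested on simulated data, normal values with the mean and spread of each counted probe. These were drawn separately for each array, without the pairing. The number of arrays limits the precision.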

Additional observations from a re-analysis of the deposited data

Results flagged for a closer look

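The extracellular matrix list had a median log2 difference of -0.17 in HA22T. Its median was below 0 on all 3 HA22T siGALNT1 arrays against the control mean (-0.14, -0.12 and -0.03) and above 0 on all 3 PLC5 siGALNT1 arrays (0.08, 0.20 and 0.01). The difference between the lines was not tested for the list, and it was the only one of 32 lists with opposite signs on every array. Over all counted genes the same medians were -0.02, -0.13 and -0.08 in HA22T and 0.09, 0.04 and -0.04 in PLC5. Groups of 3 arrays were too small for a test of single arrays far from the others.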

How the results depend on the processing

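The counts depended on the setting. At an adjusted p below 0.05, 3 probes passed after normexp background correction, with a trend or with the prior from counted probes, and 0 with HA22T fitted alone, with the replicate block or with detection required on all 6 arrays. Probes higher by the criterion numbered 1148 after normexp, 1005 with the percentile taken without flagged spots, 1074 under the replicate block, 1529 with no filter on dim probes and 345 with detection on all 6. Probes lower by it numbered 195 after normexp, 685 after quantile normalization, 183 with the percentile taken without flagged spots, 248 with the percentile over spots flagged on no array, 854 under the block, 253 with the methods' t-test (500 higher, 1 after Benjamini-Hochberg) and 134 with detection on all 6. Leaving out 1 array gave 0 to 1 adjusted calls, 301 to 1034 higher and 192 to 1326 lower.

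The dimmer GALNT1 probe kept its value of -4.75 but missed the adjusted threshold under the replicate block (adjusted p = 0.107), with HA22T alone (0.999) and with the methods' t-test (0.983), and in 5 of the 6 fits without 1 array (0.0968 to 0.340), and it ranged from -5.36 to -4.27 without 1 array. The brighter probe passed it after normexp (-4.26), with a trend and with the counted prior (both -5.10). Of 918 values of 51 named genes under 18 alternatives 852 kept their side of the criterion, 66 did not and 0 reversed, and 37 of 528 list medians moved by more than the replicate spread. Of 32 list medians 15 kept 1 sign in all 17 settings. The 2 alternatives on the percentile were chosen after seeing the data. With 3 arrays a group and 1 slide, small differences were not detectable, and dim probes lie near the background. In simulated data 2 of 100 probes set to a log2 change of 1 passed the adjusted threshold, and 59 of 100 set to a change of 2. In that simulation, which holds no pairing of arrays, differences of 2-fold were thus mostly missed at that threshold as well.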
